A study of Mus with 12 samples.

Results

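The replication-dependent histone genes were followed through 4 days of mouse pregnancy in RNA-seq libraries of the whole uterus. A locus here is 1 entry of a deposited gene table, and a locus was taken when its gene name began with Hist1h, Hist2h, Hist3h or Hist4h and it held an Ensembl transcript. This rule found 74 of the 128022 loci of both tables. It found 65 of the 40787 loci of the late table but 9 of the 87235 loci of the early table, because the early table mostly carries the newer symbols (H1f1, H2ac4, H3c1, H4c1) for the same genes. Another 51 early loci were found because they share an Ensembl transcript with one of the 65 late loci, and 2 more through a RefSeq synonym. In all, 62 early and 65 late histone loci are described.

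Histones are the proteins around which nuclear DNA is wound. The core of a nucleosome is built from H2A, H2B, H3 and H4, and the linker histone H1 binds the DNA where it enters and leaves the core. Replication-dependent histone genes lie in dense clusters of near-identical copies and are transcribed mainly in S phase, when new DNA has to be packed. Their mRNAs typically end in a conserved stem-loop instead of a poly(A) tail, and the stem-loop binding protein Slbp is needed to process and translate them.

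The mice were of the outbred ICR strain, pregnant and untreated, with 1 mouse per library. The groups were E0.5 (n = 3), when fertilization takes place in the oviduct, E4.5 (n = 3), when embryos implant, E15.5 (n = 3) and E18.5 (n = 3), shortly before birth. The labels give an age of 8 weeks for every mouse. E0.5 and E4.5 form the implantation stage and share 1 table, and E15.5 and E18.5 form the labor stage and share the other. The question is whether uterine expression of these genes differs between the days of a stage. The whole uterus was taken, and the methods do not say whether embryos, placentas, ovaries or oviducts were removed. Because the libraries are bulk tissue, fewer cells of a type and less RNA per cell cannot be told apart.

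Depth was 58020989 to 70906881 counts per library at the implantation stage, and the labor table holds FPKM (fragments scaled to transcript length and library depth) without counts, so its depth is unknown. E4.5 replicate 3 stood apart by marker genes other than the histones. All 10 ovary markers of a list were highest in it, with a summed 1379 FPKM against 7.66 to 10.6 FPKM in the other 5 early libraries, where Fshr and Cyp19a1 were listed at 0. Its 5 uterine muscle markers summed to 172 FPKM against 656 to 978 FPKM, and its 5 stroma markers to 13.7 FPKM against 26.9 to 112 FPKM, the lowest of the stage. Early counts by type, cluster, position and gene list are therefore also given without it. The labels describe poly(A) selection and the methods describe removal of ribosomal RNA. Levels of RNAs made without a poly(A) tail ranged widely in the early libraries, from Rn7s1, a 7SL RNA, at 22502 to 56295 FPKM to the small nuclear RNA Rnu11, listed at 0 in all 6. The effect of the RNA selection on the histone levels was not tested.

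At the implantation stage the histone loci were broadly lower at E0.5 than at E4.5. Their summed level was 399.8, 374 and 532 FPKM in the 3 libraries of E0.5 and 1427, 845 and 1261 FPKM in those of E4.5, a ratio of the means of 2.71 for E4.5 over E0.5. The groups did not overlap, and without E4.5 replicate 3 the ratio was 2.61. In counts, the histone loci took 0.0443% to 0.0589% of a library at E0.5 and 0.0906% to 0.142% at E4.5. The criterion used throughout is a log2 fold change of at least 1 in size with an unadjusted p under 0.05. Of 61 tested loci, 42 were downregulated at E0.5 by this criterion, where 5.82% of all 59732 tested loci were. None was upregulated, where 6.37% of all tested loci were, and 47 of the 61 had an unadjusted p under 0.05 in edgeR, where 17.0% of all tested loci had. The median log2 fold change of the 61 loci was -1.71, against -0.01 over all tested loci. Leaving out E4.5 replicate 3 gave 42 downregulated and 0 upregulated loci.

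The stricter threshold, a Benjamini-Hochberg adjusted p under 0.05 over all tested loci, was passed by 11 histone loci, all lower at E0.5, where 1.22% of all tested loci passed it. This count depended on single libraries, as did the number of all loci past the adjusted p, which was 730 with every library. Without E4.5 replicate 3, 25 histone loci of 3652 loci in all passed it, and without E4.5 replicate 2, 4 histone loci did, with fewer of all loci past it as well. No histone locus passed it without any one of E0.5 replicate 1, 2 or 3 or E4.5 replicate 1, where 0 to 46 of all loci did. The downregulated count by the criterion stayed between 36 and 43 when each library was left out in turn.

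**Figure D1:**
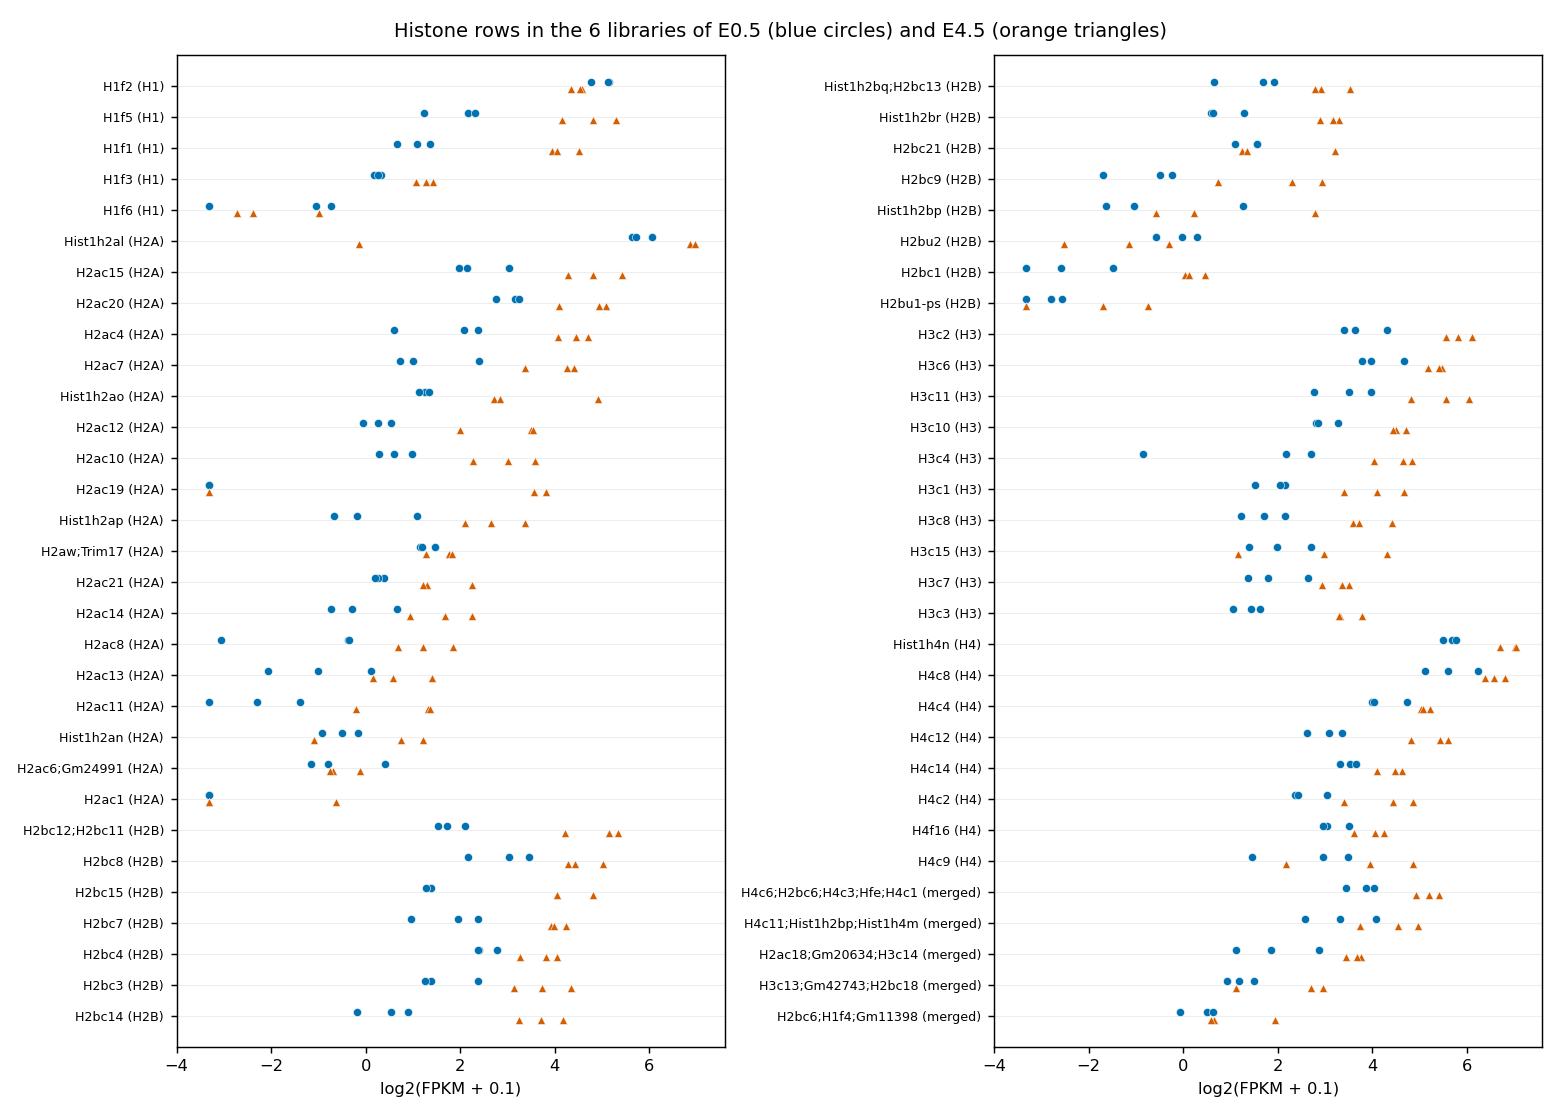
Level of each of the 62 histone loci in the 6 implantation-stage libraries, as log2(FPKM + 0.1) on the horizontal axis, with E0.5 as blue circles and E4.5 as orange triangles (n = 3 each). Loci are ordered by histone type and mean FPKM. Circles mostly lie left of triangles, and in H1f2 all circles lie right of all triangles.

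The linker histones were split. H1f1 (Hist1h1a; chromosome 13, 23763666 to 23764406, plus strand), which encodes the somatic variant H1.1, had 2.47, 1.48 and 2.02 FPKM at E0.5, compared with 22.8, 15.4 and 16.3 FPKM at E4.5. Every E4.5 library lay well above every E0.5 library, by a log2 fold change of -3.18 (SE, the standard error, 0.32; adjusted p = 0.0173), and this was the smallest adjusted p of the 61 loci. H1f5 (Hist1h1b), encoding H1.5, had 2.24, 4.36 and 4.90 FPKM at E0.5, compared with 39.1, 17.7 and 27.9 FPKM at E4.5 (log2 fold change -2.88, standard error 0.44, adjusted p = 0.0418). H1f3 (Hist1h1d) also passed the criterion, at a lower level of 1.09 ± 0.0567 FPKM (SD, n = 3) at E0.5 compared with 2.30 ± 0.311 FPKM (SD, n = 3) at E4.5.

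H1f2 (Hist1h1c), encoding H1.2, went the other way. It had 35.2, 27.1 and 34.7 FPKM at E0.5, compared with 23.8, 20.3 and 23.0 FPKM at E4.5, so that here each E0.5 library was above each E4.5 library. Its log2 fold change of 0.54 (0.18 standard error, unadjusted p = 0.0195, adjusted p = 0.197) was below the fold minimum of the criterion. H1f2 was the most abundant H1 gene at E0.5, and at E4.5 H1f5 had the higher mean, 28.2 ± 10.7 FPKM (SD, n = 3) against 22.4 ± 1.85 FPKM (SD, n = 3). H1f6 (Hist1h1t), the testis-specific H1t, lay between 0 and 0.501 FPKM in the 6 libraries with overlapping groups, and its log2 fold change of 0.67 had a standard error of 1.54. By the criterion 3 of the 5 H1 loci were downregulated, also without E4.5 replicate 3. The 5 loci together made up 8.10% to 10.4% of the histone FPKM of an E0.5 library and 5.52% to 6.59% of an E4.5 library.

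Among the H2A loci, 13 of 18 tested were downregulated at E0.5 and none was upregulated, with a median log2 fold change of -2.41. H2ac15 (Hist1h2ak), a canonical H2A gene, had 4.31, 8.12 and 3.80 FPKM at E0.5, compared with 42.9, 19.2 and 28.0 FPKM at E4.5 (log2 fold change -2.47, standard error 0.46, adjusted p = 0.0610). H2ac20 (Hist2h2ac; chromosome 3, 96220361 to 96220880, minus strand) had 6.61, 8.81 and 9.41 FPKM at E0.5, compared with 33.8, 17.0 and 30.7 FPKM at E4.5 (log2 fold change -1.71, standard error 0.33, adjusted p = 0.0669). In both, the groups did not overlap and E4.5 replicate 2 was the lowest E4.5 library. H2ac11 (Hist1h2ag) was nearly silent at E0.5, with 0, 0.284 and 0.103 FPKM, and had 2.39, 0.773 and 2.47 FPKM at E4.5 (log2 fold change -3.72, standard error 1.22, adjusted p = 0.195). Without E4.5 replicate 3, 13 of 18 H2A loci were again downregulated, and 6 passed the adjusted p where none did with all libraries.

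Some H2A loci cannot be read in this way. H2ac19 (Hist2h2aa2) was listed at 0 in the 3 E0.5 libraries and had 14.0, 0 and 11.8 FPKM at E4.5, so its groups overlap at 0. Against a floor of 3 counts in each E0.5 library, its E0.5 mean was at least 125-fold below its E4.5 mean. With an E4.5 library left out it was at least 81.2-fold to 187-fold below. The E4.5 mean rests on replicates 1 and 3, and E4.5 replicate 2 did not differ from E0.5. The locus passed the criterion and is counted among the downregulated ones. These bounds cover counting error only. H2ac19 has a near-identical copy, H2ac18 (Hist2h2aa1), which sits in a merged locus with H3c14 at 7.24, 2.09 and 3.51 FPKM at E0.5, compared with 13.4, 12.6 and 10.7 FPKM at E4.5, and how the authors' counting divided reads between such copies is not stated. The highest H2A locus by mean FPKM, Hist1h2al, is typed as a processed pseudogene and lies outside the cluster (chromosome 13, 51202727 to 51203065). It had 49.8, 52.8 and 66.1 FPKM at E0.5, compared with 116, 0.802 and 125 FPKM at E4.5, so E4.5 replicate 2 alone lay far below all other libraries. It did not pass the criterion (unadjusted p = 0.687 in edgeR), and without E4.5 replicate 2 it did, with a log2 fold change of -1.10. Without this locus the summed H2A level was 4.88 times as high at E4.5 as at E0.5, and with it 2.70 times.

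Of the types summed over all their loci, H2B had the largest ratio between the days. Its summed level was 33.5, 29.6 and 47.9 FPKM at E0.5, compared with 211, 122 and 160.1 FPKM at E4.5, a ratio of the means of 4.44, and 11 of 15 H2B loci were downregulated at E0.5 with a median log2 fold change of -2.21 (10 of 15 without E4.5 replicate 3). H2B made up 7.906% to 9.001% of the histone FPKM of an E0.5 library and 12.7% to 14.8% of an E4.5 library. H2bc14 (Hist1h2bm) had 0.774, 1.76 and 1.35 FPKM at E0.5, compared with 17.9, 9.38 and 13.04 FPKM at E4.5. Its log2 fold change of -3.36 (SE 0.45, adjusted p = 0.0305) was the largest in size among the loci past the adjusted p. H2bc15 (Hist1h2bn) was steady at E0.5, with 2.47, 2.50 and 2.31 FPKM, and had 28.0, 16.3 and 16.5 FPKM at E4.5 (log2 fold change -3.06, standard error 0.34, adjusted p = 0.0215).

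A merged locus of H2bc12 and H2bc11 (Hist1h2bj and Hist1h2bk) had 2.79, 3.19 and 4.16 FPKM at E0.5, compared with 40.3, 18.4 and 35.5 FPKM at E4.5 (log2 fold change -3.21, adjusted p = 0.0233). Hist1h2br had 1.41, 2.35 and 1.44 FPKM at E0.5, compared with 9.67, 7.30 and 8.87 FPKM at E4.5 (log2 fold change -2.31, adjusted p = 0.0275). H2bc8 (Hist1h2bg), the second highest H2B locus, had 8.09, 4.37 and 10.8 FPKM at E0.5, compared with 32.4, 19.3 and 21.3 FPKM at E4.5 (log2 fold change -1.65, adjusted p = 0.108). Of the 4 H2B loci that did not pass, Hist1h2bp was a Hist1 locus and the other 3 lay in the smaller clusters. H2bc21 (Hist2h2be) on chromosome 3 had 2.02, 2.85 and 2.86 FPKM at E0.5, compared with 2.28, 2.46 and 9.11 FPKM at E4.5, where the high value belongs to E4.5 replicate 3. H2bu2 (Hist3h2ba) had 0.879, 0.573 and 1.12 FPKM at E0.5, compared with 0.353, 0.0750 and 0.713 FPKM at E4.5, with overlapping groups, a log2 fold change of 1.17 and adjusted p = 0.513.

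The H3 loci had the same sign throughout. All 10 had a log2 fold change below 0, 9 were downregulated at E0.5, also without E4.5 replicate 3, and the range was -2.63 to -1.16. H3c2 (Hist1h3b; chromosome 13, 23752267 to 23752886, plus strand), the highest H3 locus, had 10.5, 19.7 and 12.3 FPKM at E0.5, compared with 68.9, 47.0 and 56.3 FPKM at E4.5 (log2 fold change -2.01, standard error 0.31, adjusted p = 0.0434). H3c11 (Hist1h3i) had 11.3, 6.67 and 15.6 FPKM at E0.5, compared with 66.0, 28.0 and 47.3 FPKM at E4.5 (log2 fold change -2.08, adjusted p = 0.0812). Both genes encode canonical H3, and in both the lowest E4.5 value exceeded the highest E0.5 value.

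Other H3 genes changed in the same direction. H3c6 (Hist1h3e) had 15.6, 13.6 and 25.5 FPKM at E0.5, compared with 44.4, 36.0 and 42.8 FPKM at E4.5 (log2 fold change -1.16, adjusted p = 0.106), and fell under the fold minimum without E0.5 replicate 2 (-0.99). H3c10 (Hist1h3h) had 9.60, 6.96 and 7.10 FPKM at E0.5, compared with 22.6, 21.6 and 26.3 FPKM at E4.5 (log2 fold change -1.56, adjusted p = 0.0367), and H3c3 (Hist1h3c) had 2.51 ± 0.508 FPKM (SD, n = 3) and 11.1 ± 2.31 FPKM (SD, n = 3) (log2 fold change -2.14, adjusted p = 0.0349). H3c15 (Hist2h3c2) on chromosome 3 was the only H3 locus that did not pass the criterion, with 3.85, 2.52 and 6.42 FPKM at E0.5, compared with 7.73, 2.12 and 19.7 FPKM at E4.5.

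The H4 loci were the most abundant type in every library. H4 made up 35.8% to 39.3% of the histone FPKM at E0.5 and 26.9% to 36.1% at E4.5. All 8 had a log2 fold change below 0, with a median of -1.04, and 3 were downregulated by the criterion. That count was also 3 without E4.5 replicate 3, but 6 without E0.5 replicate 3 and 5 without E4.5 replicate 2. Hist1h4n (chromosome 13, 21831767 to 21832196, minus strand), the highest histone locus of the stage, had 51.2, 45.2 and 54.7 FPKM at E0.5, compared with 129, 105 and 131 FPKM at E4.5 (log2 fold change -1.27, standard error 0.18, adjusted p = 0.0337). H4c12 (Hist1h4k) had 8.42, 6.07 and 10.1 FPKM at E0.5, compared with 48.5, 27.9 and 42.9 FPKM at E4.5 (log2 fold change -2.27, standard error 0.33, adjusted p = 0.0353). Both had groups that did not overlap.

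The next most abundant H4 genes stayed under the fold minimum. H4c8 (Hist1h4h) had 48.6, 34.3 and 74.9 FPKM at E0.5, compared with 83.1, 95.7 and 113 FPKM at E4.5, with a log2 fold change of -0.87 (SE 0.29, adjusted p = 0.208). H4c4 (Hist1h4d) had 15.9, 16.3 and 26.3 FPKM at E0.5, compared with 37.3, 32.4 and 33.5 FPKM at E4.5, with a log2 fold change of -0.81 (SE 0.25, adjusted p = 0.169). Without E0.5 replicate 3, the highest E0.5 library in both, each passed the criterion, at -1.23 for H4c8 and -1.09 for H4c4. H4f16 (Hist4h4) on chromosome 6, the single member of its cluster, had 8.12, 7.71 and 11.3 FPKM at E0.5, compared with 16.5, 12.2 and 18.8 FPKM at E4.5 (log2 fold change -0.79, adjusted p = 0.170). Levels within a family of copies that differ at few bases are uncertain, as reads may have been assigned to the wrong copy.

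**Figure D2:**
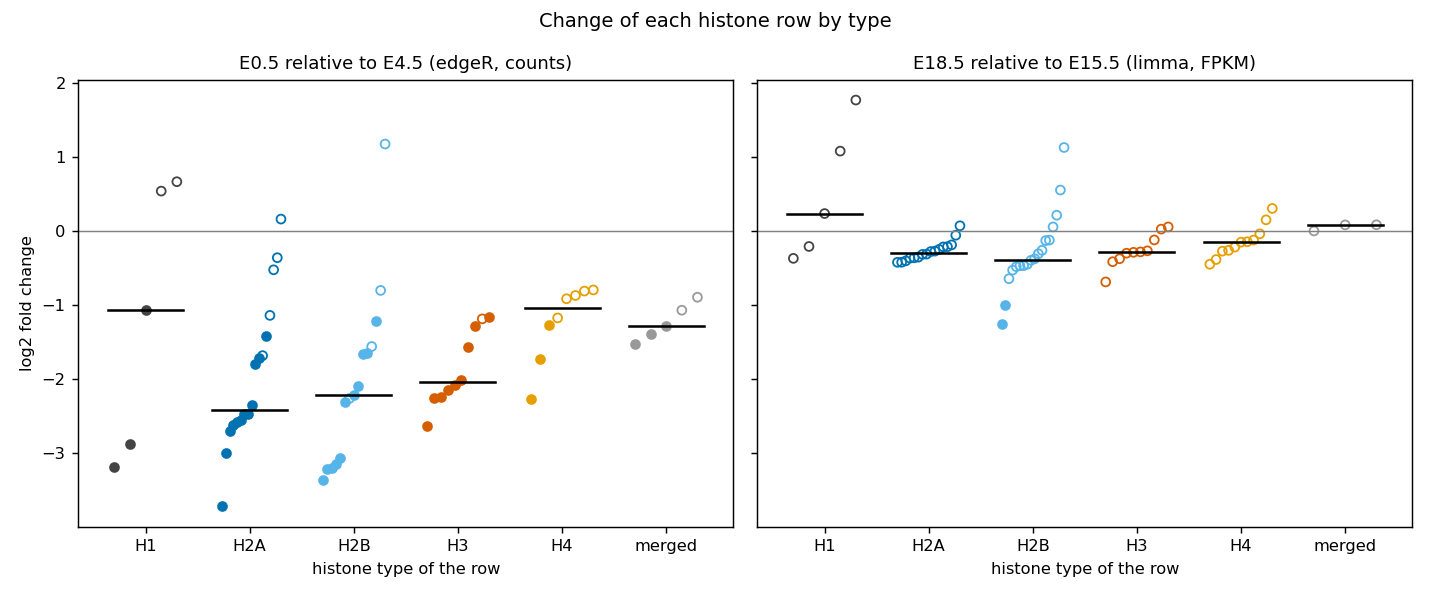
Log2 fold change of each tested histone locus by type, on the left for E0.5 over E4.5 and on the right for E18.5 relative to E15.5. Filled points passed the criterion, open points did not, and black lines mark the median of all tested loci of a type; H2ac19, whose fold change is a bound, is not drawn. On the left the medians lie between -2.41 (H2A) and -1.04 (H4), and on the right between -0.38 (H2B) and 0.24 (H1).

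By cluster, 37 of 49 tested Hist1 loci, 5 of 8 Hist2 loci, 0 of 3 Hist3 loci and 0 of 1 Hist4 locus were downregulated at E0.5. Without E4.5 replicate 3 the counts were 39, 3, 0 and 0. The 11 loci past the adjusted p were all Hist1 loci. The Hist1 loci of chromosome 13 fall into 4 groups by position (build GRCm38, in which 63 of 64 histone symbols held by RefSeq overlapped the RefSeq gene). Group A, from 21715752 to 21837530, had 13 of 17 loci downregulated, with a median log2 fold change of -2.08. Group B, from 22035164 to 22045929, had 3 of 4 (median -3.10), and group C, from 23531050 to 23764406, had 20 of 26 (median -1.87). Without E4.5 replicate 3 the counts of groups A, B and C were 15, 3 and 21. In group D, from 23933773 to 23934851, lie the testis genes H2bc1 (Hist1h2ba) and H2ac1 (Hist1h2aa). H2bc1 had 0, 0.0661 and 0.259 FPKM at E0.5, compared with 0.929, 0.990 and 1.29 FPKM at E4.5, and H2ac1 was listed at 0 except for 0.547 FPKM in E4.5 replicate 3 and was too low to test. H2bc1 passed the criterion with all libraries but not without E0.5 replicate 2 or any one E4.5 library. The 3 Hist1 loci with a log2 fold change above 0, H2ac6 (in a locus with Gm24991), H1f6 and H1f2, all lay in group C, next to each other or with H2bc4 between them.

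**Figure D3:**
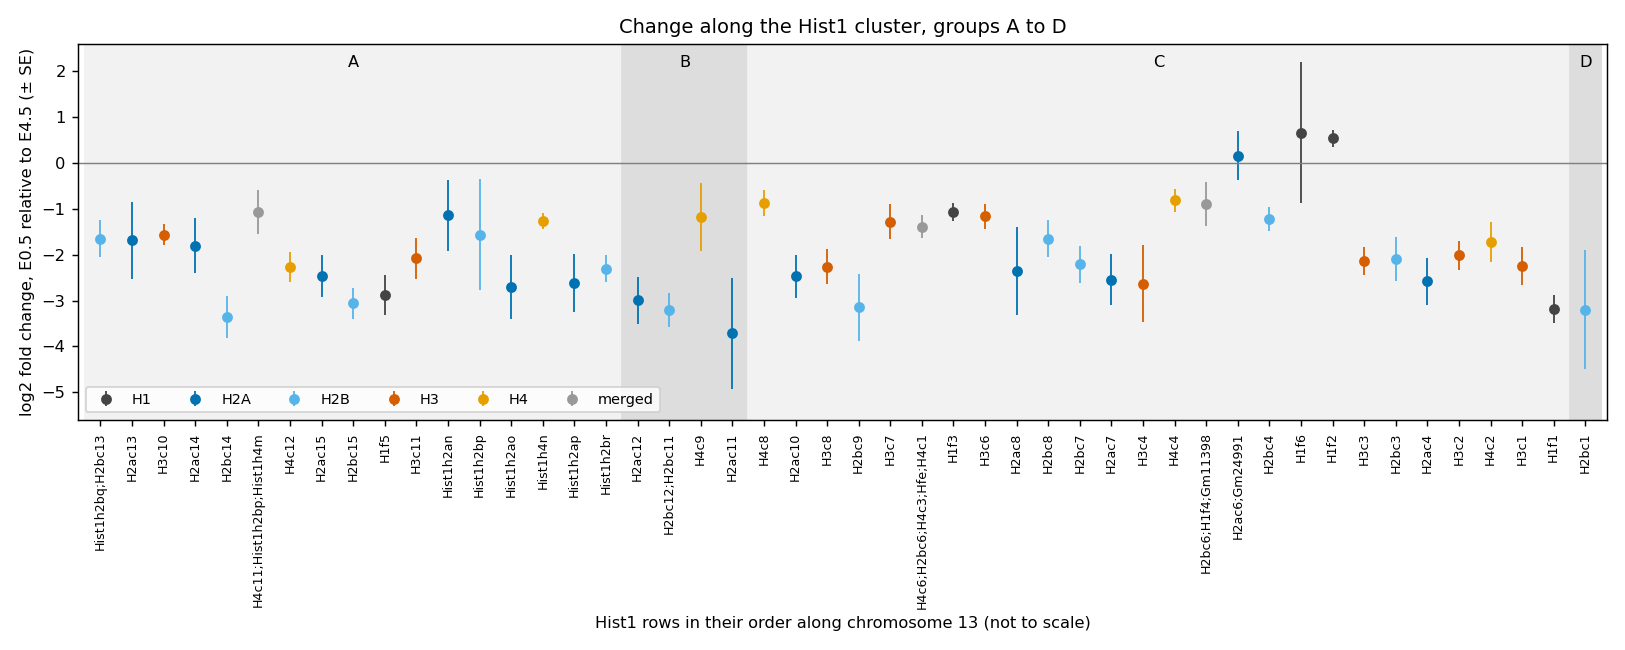
Log2 fold change of E0.5 relative to E4.5 (± standard error) for the tested Hist1 loci in their order along chromosome 13, without Hist1h2al, coloured by histone type. Shading marks groups A to D, and the spacing is not to scale. Most points lie between -1 and -3.4, and the points above 0 are H2ac6, H1f6 and H1f2 in group C.

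Many H2A and H2B genes start back to back on opposite strands. In 12 pairs the starts lay within 1000 bases of each other, with 172 to 305 bases between them. Both members were downregulated at E0.5 in 7 pairs, 1 member in 3 pairs and neither in 2 pairs, with the same counts without E4.5 replicate 3 or E0.5 replicate 1. Without any one of the other 4 libraries both were downregulated in 5 pairs, and 1 member in 4 or, without E0.5 replicate 3, in 5 pairs. The pair of H2ac15 and H2bc15, with 295 bases between the starts, had log2 fold changes of -2.47 and -3.06. The pair of H2ac6 and H2bc4 (Hist1h2bc), with 250 bases, was uneven. H2ac6 had 1.22, 0.346 and 0.476 FPKM at E0.5, compared with 0.519, 0.822 and 0.491 FPKM at E4.5, whereas H2bc4 had 5.17, 5.12 and 6.75 FPKM and 14.0, 9.45 and 16.5 FPKM (log2 fold change -1.22, adjusted p = 0.0887). Of all 61 tested histone loci, 42 were downregulated at E0.5. Whether both members of a pair were called more often than this share gives was not tested. The difference between the members of a pair was not tested either.

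Another 5 early loci merge histone genes of several types, 1 of them over 209973 bases with H4c6, H2bc6, H4c3, H4c1 and the iron regulator Hfe. That locus had 10.8, 14.5 and 16.3 FPKM at E0.5, compared with 42.6, 30.2 and 36.4 FPKM at E4.5 (log2 fold change -1.38, adjusted p = 0.0547). Of the merged loci 3 were downregulated (4 without E4.5 replicate 3), and their values cannot be assigned to one gene. Strandedness of the counting is not stated, so reads of overlapping neighbours cannot be told apart either. With loci that name a single gene alone, 37 were downregulated at E0.5 and 10 passed the adjusted p.

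Genes of DNA replication were also lower at E0.5. On a list of 23 genes of S phase, 20 were lower at E0.5 by the criterion, 11 passed the adjusted p and none was higher, with a median log2 fold change of -1.59. Pcna, the sliding clamp of the replication fork, had 7.42, 6.17 and 7.35 FPKM at E0.5, compared with 18.52, 15.4 and 19.1 FPKM at E4.5 (log2 fold change -1.33, adjusted p = 0.0290). Mcm2, a subunit of the replicative helicase, had a log2 fold change of -1.62 (adjusted p = 0.0254). The largest changes were in Rrm2, a subunit of ribonucleotide reductase, with 0.967, 0.633 and 0.575 FPKM at E0.5, compared with 27.5, 18.8 and 4.42 FPKM at E4.5 (log2 fold change -4.56, adjusted p = 0.0439), and in Ccne1, a cyclin of S phase entry (log2 fold change -2.89, adjusted p = 0.126). Without E4.5 replicate 3, 20 of the 23 genes were lower and 18 passed the adjusted p. Without E4.5 replicate 2, 1 passed it. Without any one of E0.5 replicate 1, 2 or 3 or E4.5 replicate 1, 0 passed it. The lower count was 18 to 21 with a library left out.

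All 10 genes of a mitosis list were lower at E0.5 by the criterion, and 7 passed the adjusted p. Mki67, the Ki-67 antigen of cycling cells, had 0.468, 0.892 and 1.13 FPKM at E0.5, compared with 4.06, 3.03 and 2.90 FPKM at E4.5 (log2 fold change -1.999, adjusted p = 0.0604). Ccnb1 (log2 fold change -3.85, adjusted p = 0.0173) and Bub1 (log2 fold change -3.20, adjusted p = 0.0264), which act in mitotic entry and the spindle checkpoint, changed most. With any library left out, all 10 were again lower by the criterion. The count past the adjusted p was 10 without E4.5 replicate 3 and 3 without E4.5 replicate 2. It was 1 without E4.5 replicate 1 and 0 without any one E0.5 library. The share of the histone change that goes with the number of cycling cells was not tested.

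Of 15 genes for histone pre-mRNA processing and cluster transcription, 1 was lower by the criterion, a share near the 5.82% of all tested loci, and none passed the adjusted p. All 15 had a log2 fold change below 0 (median -0.37). That gene was Slbp, with 1.09, 1.58 and 0.495 FPKM at E0.5, compared with 1.95, 2.25 and 3.38 FPKM at E4.5 (log2 fold change -1.23, unadjusted p = 0.0265, adjusted p = 0.226 in edgeR), and without E0.5 replicate 1, or without E4.5 replicate 3, its highest library, no gene of the list passed the criterion. In the latter fit 1 gene passed the adjusted p. Npat, the coactivator of histone gene transcription in S phase, had 4.21, 3.84 and 4.34 FPKM at E0.5, compared with 5.10, 4.81 and 5.17 FPKM at E4.5 (log2 fold change -0.27, adjusted p = 0.389). Among 12 histone chaperones, 3 were lower at E0.5 and none was higher, also without E4.5 replicate 3, whereas 5 were lower without E0.5 replicate 3. They included Asf1b (log2 fold change -2.68, adjusted p = 0.0578) and the large subunit of chromatin assembly factor 1, Chaf1a (log2 fold change -1.59, adjusted p = 0.0259).

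Replication-independent histones and histone variants, most of which are not tied to S phase in the way the cluster genes are, were counted beside them. Of 11, 3 were lower at E0.5 and none was higher, and without E4.5 replicate 3 the lower count was 2. H2ax (H2afx), the DNA damage variant, whose gene also makes a stem-loop mRNA in S phase, had 4.40, 2.94 and 4.17 FPKM at E0.5, compared with 17.0, 9.86 and 10.98 FPKM at E4.5 (log2 fold change -1.73, adjusted p = 0.0581). Cenpa, the H3 variant of centromeres, whose mRNA peaks in G2, had a log2 fold change of -1.50 (adjusted p = 0.0596). H2az1 (H2afz), at 37.4, 16.7 and 20.2 FPKM and 28.8, 43.0 and 29.5 FPKM, did not pass the criterion (log2 fold change -0.44, adjusted p = 0.533). The same held for H3f3b, which encodes H3.3 (log2 fold change 0.14, adjusted p = 0.761), and for the linker histone H1f0 of non-dividing cells (log2 fold change 0.38, adjusted p = 0.341). Of 12 tested RNAs made without a poly(A) tail, 0 passed the criterion in either direction (median log2 fold change 0.02, 0 past an unadjusted p of 0.05 in edgeR), and without E4.5 replicate 3 none passed the criterion and 1 the adjusted p. Lymphocyte (0 of 2 tested) and trophoblast (0 of 2) markers did not pass, with or without E4.5 replicate 3. The 4 tested erythroid markers all had a log2 fold change below 0 (median -1.06), and 0 passed with all libraries or without E4.5 replicate 3 but 3 without E4.5 replicate 2. Of 3 oviduct markers none passed with all libraries, and without E4.5 replicate 3, 1 was higher at E0.5 and passed the adjusted p (median log2 fold change 0.72 in place of -1.16). Ttr, 1 of 2 tested yolk sac markers, was lower at E0.5 (1 to 2 lower with a library left out), and 2 of 5 epithelium markers were higher (1 to 3). Of 5 stroma markers 1 was lower (2 without E4.5 replicate 3 and 0 without any other library, with 1 higher without E4.5 replicate 2), and 0 of 5 muscle markers passed. Of 10 ovary markers 6 were lower (1 of 5 tested without E4.5 replicate 3, 1 to 10 with a library left out).

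**Figure D4:**
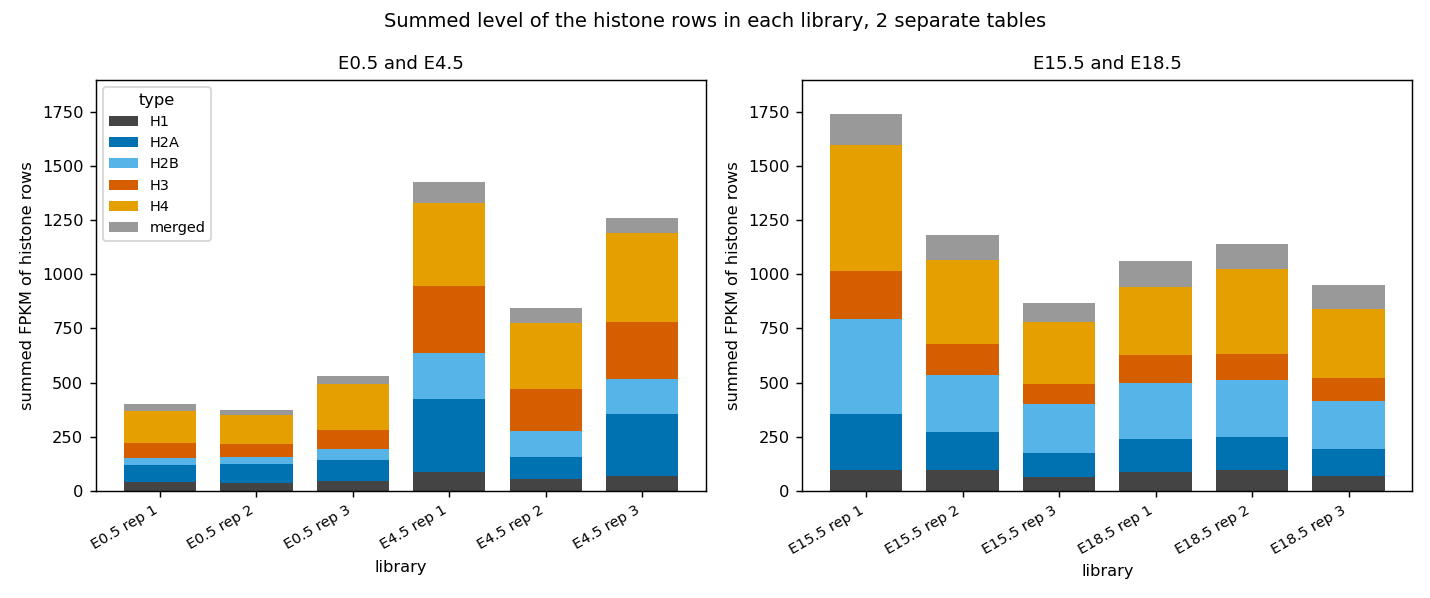
Summed FPKM of the histone loci in each library, stacked by histone type, for the implantation table (left, 62 loci) and the labor table (right, 65 loci), which were normalized separately. On the left the E0.5 libraries reach 374 to 532 FPKM, the E4.5 libraries 845 to 1427 FPKM. On the right E15.5 replicate 1 reaches 1743 FPKM and the other 5 libraries 867 to 1181 FPKM.

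At the labor stage the summed levels of the histone loci overlapped between the days. They were 1743, 1181 and 867 FPKM at E15.5 and 1060, 1143 and 952 FPKM at E18.5. Of 63 tested loci, 2 were downregulated at E18.5 by the criterion, where 2.93% of all 30928 tested loci were, and 0 were upregulated, where 3.11% were. In limma, 0 histone loci passed the adjusted p, where 0.0259% of all tested loci did, and 2 of 63 had an unadjusted p under 0.05, where 12.2% of all tested loci had. The median log2 fold change of E18.5 relative to E15.5 was -0.27, against 0.02 over all tested loci. This median rested on E15.5 replicate 1, the highest of the 6 libraries for 51 of the 65 loci. Without that library it was 0.032, and without E15.5 replicate 3, the lowest E15.5 library for 54 loci, it was -0.54.

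The 2 loci that passed were weakly expressed, and neither was among the abundant members. Hist3h2ba, an H2B gene, had 0.715, 1.15 and 0.760 FPKM at E15.5 and 0.566, 0.288 and 0.322 FPKM at E18.5 (log2 fold change -1.002, unadjusted p = 0.0174, adjusted p = 0.291 in limma). A locus of Hist2h2bb and Gm42743 had 0.381, 0.136 and 0.135 FPKM at E15.5 and 0, 0 and 0.0963 FPKM at E18.5 (log2 fold change -1.26, unadjusted p = 0.0371, adjusted p = 0.376 in limma). Its early counterpart, which also holds H3c13, was the only locus past the criterion at both stages, with 2.17, 1.80 and 2.71 FPKM at E0.5, compared with 7.64, 2.07 and 6.45 FPKM at E4.5 (log2 fold change -1.28, adjusted p = 0.252). The early call was lost without any one library except E4.5 replicate 2 (unadjusted p of 0.0538 to 0.12), and the late call without E18.5 replicate 1 or 2 (unadjusted p of 0.0955 and 0.101 in limma) and without E15.5 replicate 1, where its mean of 0.0736 FPKM was too low to test. The call of Hist3h2ba was lost without E15.5 replicate 2 (log2 fold change -0.81), E18.5 replicate 2 (-0.85) or E18.5 replicate 3 (-0.91), with unadjusted p of 0.0511 to 0.0700 in limma. Without E18.5 replicate 2 no histone locus was downregulated. Without E15.5 replicate 3 the H3 gene Hist1h3g was downregulated as well (log2 fold change -1.12), and without E15.5 replicate 2 Hist1h1t was upregulated (log2 fold change 1.35).

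Several abundant members were highest in E15.5 replicate 1. Hist1h4m, the highest H4 locus, had 101, 70.3 and 52.1 FPKM at E15.5 and 59.9, 76.6 and 59.6 FPKM at E18.5 (log2 fold change -0.14, adjusted p = 0.847). Hist1h2bb, an H2B gene, had 65.5, 38.5 and 29.2 FPKM at E15.5 and 31.8, 35.3 and 28.8 FPKM at E18.5 (log2 fold change -0.39, adjusted p = 0.619). Hist1h3b, the counterpart of H3c2, had 35.4, 22.6 and 14.5 FPKM at E15.5 and 18.4, 20.2 and 17.1 FPKM at E18.5 (log2 fold change -0.29, adjusted p = 0.729). In each of them the spread within E15.5 was wider than the difference of the day means.

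The highest loci of H2B and H1 had day means in the other order. Hist1h2bc, the highest H2B locus, had 95.0, 52.1 and 62.5 FPKM at E15.5 and 78.8, 67.4 and 65.4 FPKM at E18.5 (log2 fold change 0.06, adjusted p = 0.946). The linker gene Hist1h1c, the counterpart of H1f2, had 36.1, 31.9 and 27.8 FPKM at E15.5 and 40.6, 39.7 and 32.4 FPKM at E18.5 (log2 fold change 0.24, adjusted p = 0.579). Its fellow linker gene Hist1h1a had the same order of libraries as Hist1h3b, with 38.4, 34.1 and 16.1 FPKM at E15.5 and 20.9, 28.6 and 16.3 FPKM at E18.5 (log2 fold change -0.37, adjusted p = 0.709). Of the H4 genes, Hist2h4 had its lowest value, 7.99 FPKM, in E15.5 replicate 1, with 12.7 and 9.49 FPKM in the other E15.5 libraries and 11.5, 13.2 and 12.1 FPKM at E18.5 (log2 fold change 0.31, adjusted p = 0.548). Hist1h2bp likewise had 0.493, 5.63 and 4.19 FPKM at E15.5 and 5.38, 5.64 and 4.74 FPKM at E18.5. The other 9 loci among the 3 highest of their type (Hist1h1b, Hist2h2ac, Hist1h2ak, Hist1h2ai, Hist1h2bg, Hist1h3e, Hist1h3i, Hist1h4c and Hist1h4n) had log2 fold changes of -0.41 to 0.07 and adjusted p of 0.578 to 0.895. The testis gene Hist1h1t was the only locus with every E18.5 library above every E15.5 library, at 0.324, 0.366 and 0.0632 FPKM and then 0.854, 0.427 and 0.505 FPKM (log2 fold change 1.08, adjusted p = 0.434). The pseudogene Hist1h2al, so abundant in most early libraries, lay between 0 and 0.227 FPKM and was not tested.

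By type, 2 of 18 tested H2B loci were downregulated at E18.5 and 0 of 5 H1, 0 of 16 H2A, 0 of 10 H3, 0 of 11 H4 and 0 of 3 merged loci. By cluster these were 1 of 7 tested Hist2 loci and 1 of 3 Hist3 loci. Over the 6 libraries H4 made up 29.9% to 34.0% of the histone FPKM, H2B 22.3% to 26.1%, H2A 12.9% to 14.7%, H3 10.4% to 12.7%, H1 5.50% to 8.41% and the merged loci 8.31% to 11.6%. The lowest H1 and merged shares were both those of E15.5 replicate 1.

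E15.5 replicate 1 was also the highest library for 11 of 23 S phase genes and 8 of 10 mitosis genes. Mki67 had 14.0, 8.91 and 6.12 FPKM at E15.5 and 7.18, 8.44 and 5.54 FPKM at E18.5 (log2 fold change -0.39, adjusted p = 0.646). Of the S phase list, 2 genes were lower at E18.5 (1 without E15.5 replicate 1 or E18.5 replicate 1, and 1 gene higher without E18.5 replicate 3), and both encode ribonucleotide reductase. Rrm2 had 131, 76.3 and 56.4 FPKM at E15.5 and 6.70, 10.9 and 20.8 FPKM at E18.5 (log2 fold change -2.83, adjusted p = 0.112), and Rrm1 had a log2 fold change of -1.19 (adjusted p = 0.309). Pcna (log2 fold change -0.28, adjusted p = 0.686) and Mcm2 (log2 fold change 0.11, adjusted p = 0.836) did not pass. No gene passed on the lists of mitosis, histone mRNA processing, replication-independent histones (1 higher without E15.5 replicate 3) or chaperones, and 1 RNA without a poly(A) tail, the telomerase RNA Terc, was lower at E18.5 (log2 fold change -1.74, adjusted p = 0.244). Slbp had 3.40, 2.52 and 2.71 FPKM at E15.5 and 2.73, 2.42 and 2.42 FPKM at E18.5.

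Markers of other tissues also varied between the labor libraries. Yolk sac markers summed to 1.53, 107 and 785 FPKM at E15.5 and to 181.3, 538 and 94.1 FPKM at E18.5, with Apoa4 listed at 0 in E15.5 replicate 1, and 1 of 6 was lower at E18.5 (1 was also higher without E15.5 replicate 3). Trophoblast markers summed to 35.0, 4.91 and 3.89 FPKM at E15.5 and to 57.2, 74.7 and 43.8 FPKM at E18.5, and 2 of 7 tested were higher at E18.5 (1 to 2 with a library left out). Erythroid markers summed to 895 to 1677 FPKM at E15.5 and 543 to 1283 FPKM at E18.5 (2 of 8 lower at E18.5, 1 to 3 with a library left out), and lymphocyte markers to 6.40 to 10.6 FPKM and 3.98 to 4.25 FPKM (0 of 2 tested, but 1 lower without any one of E15.5 replicate 2 or 3 or E18.5 replicate 2 or 3). Of the uterine lists, 0 of 5 muscle and 0 of 5 stroma markers passed and 2 of 5 epithelium markers were higher at E18.5 (1 to 3 with a library left out), as were 2 of 6 tested ovary markers, with 0 of 2 for the oviduct. The part of these tissues in the histone values was not tested.

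The change between days differed between the stages for several members. On 64 pairs of matched loci (59 early and 63 late), the log2 fold change of E0.5 relative to E4.5 minus that of E18.5 relative to E15.5 was tested in limma on log2(FPKM + 0.1), where levels are never set across the tables. The difference was below 0 in 60 pairs, with a median of -1.46 against -0.13 over all 22056 pairs. By the criterion 42 pairs were lower and 1 higher, where 6.45% and 5.46% of all pairs were. The adjusted p was passed by 9 pairs, where 2.64% of all pairs passed, and 2 of the 9 share the merged early locus of H2bc12 and H2bc11. Of these 9, H2bc15 with Hist1h2bn had the smallest p, with log2 fold changes of -2.96 and -0.37 and a difference of -2.59 (standard error 0.42, adjusted p = 0.0111). H1f1 with Hist1h1a differed by -2.77 (standard error 0.47, adjusted p = 0.0151) and H1f5 with Hist1h1b by -2.64 (standard error 0.48, adjusted p = 0.0183). For H1f2 with Hist1h1c the difference was 0.29 (standard error 0.23, adjusted p = 0.559). The pair above 0 by the criterion was H2bu2 with Hist3h2ba (difference 2.21, adjusted p = 0.122). The count of 9 ranged from 2, without E18.5 replicate 2, to 20, without E15.5 replicate 1, and was 4 without E18.5 replicate 1, 5 without E4.5 replicate 1 and 16 without E4.5 replicate 2.

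**Figure D5:**
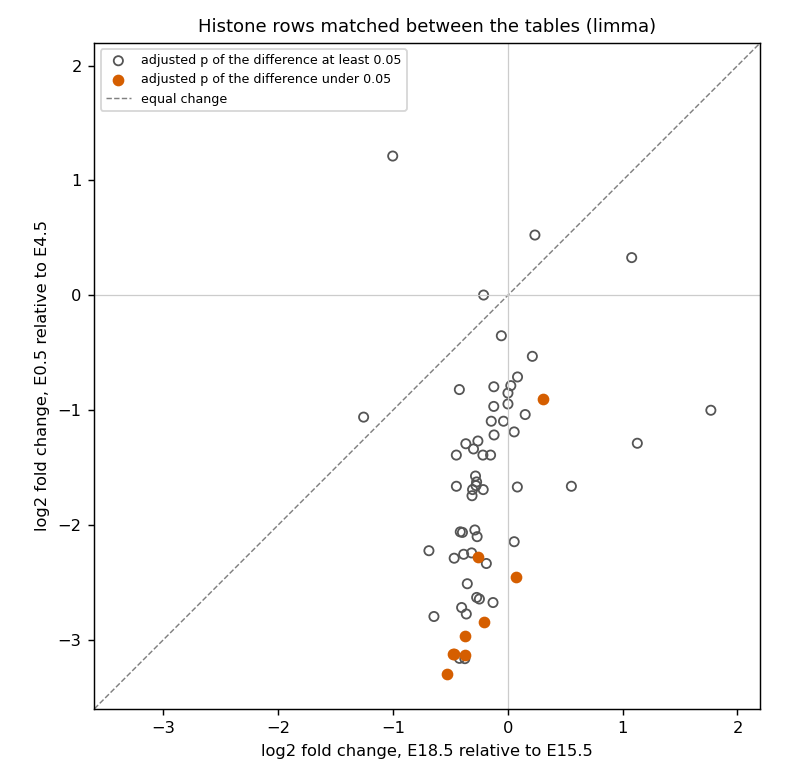
Log2 fold change of 64 pairs of matched histone loci, with E18.5 relative to E15.5 on the horizontal axis and E0.5 relative to E4.5 on the vertical axis, both from limma on log2(FPKM + 0.1). The dashed line marks equal change, and filled points are the 9 pairs whose difference passed the adjusted p. All but 4 points lie below the line.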

How the data were processed

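RNA-seq of whole uteri from 12 ICR mice (4 groups of 3) was used. The authors trimmed and aligned reads, assembled transcripts with StringTie and deposited FPKM values for both stages and whole-number counts per locus for the implantation stage; how reads were counted is not given in the sources used here. The submitters' processing notes list HISAT2 2.0, Bowtie 0.12.2 and StringTie 1.3.0, with builds mm8 and mm10. The early FPKM table holds 0.0001 in place of 0, set back to 0. No value column was left unused, and nameless loci took 1.02% to 1.86% of the counts.

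E0.5 against E4.5 was tested on counts with edgeR 4.0.16 (TMM, quasi-likelihood F-test) and E18.5 against E15.5 on log2(FPKM + 0.1) by limma-trend 3.58.1 (R 4.3.3), over loci with a mean of at least 0.1 FPKM, with Benjamini-Hochberg adjustment. Fold changes on log2(FPKM + 0.1) understate the change of low loci. The difference between stages used limma over all 12 libraries. DESeq2 1.42.0 was an alternative. The histone loci and all gene lists were chosen with earlier results of these data known. Named members are the 3 highest per type, those past the adjusted p (at most 10), the 5 largest folds per direction among loci past the criterion with at least 1 FPKM, those past it at both stages and up to 3 against their type; H1f3, H2bc4, H2bc21, H2ac6, H2ac1, H2bc1, H3c15, H4f16, H2ac18, Hist3h2ba, Hist1h1t, Hist1h3g and the merged Hfe locus, and Npat, were added after their values were seen. Deviations of same-numbered libraries from their day means correlated at -0.06 to 0.02. The tests were run on simulated data with the same noise in every library. Those data held no outlying library, so they do not cover such a case. No sequences are printed, as none was used here.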

Additional observations from a re-analysis of the deposited data

Results flagged for a closer look

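The effect of the day differed between the implantation and the labor stage for 9 pairs of matched histone loci, by the test of the difference itself (limma, Benjamini-Hochberg adjusted p under 0.05 over 22056 pairs). In each pair the log2 fold change of E0.5 relative to E4.5 was below that of E18.5 relative to E15.5. The differences were -2.59 for H2bc15 with Hist1h2bn, -2.77 for H1f1 with Hist1h1a, -2.77 for H2bc14 with Hist1h2bm, -2.53 for H2ac15 with Hist1h2ak, -2.64 for H1f5 with Hist1h1b, -2.02 for Hist1h2br, and -1.21 for H4c14 with Hist2h4. The merged locus of H2bc12 and H2bc11 was matched with Hist1h2bj (-2.65) and with Hist1h2bk (-2.64), so these 2 differences share their early values. Groups of 3 libraries are too small for a search for single outlying values.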

How the results depend on the processing

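At the implantation stage, the count of downregulated members (42) lay between 37 and 43 under other filters, scalings, tools, pseudocounts and loci naming 1 gene, and between 36 and 43 with a library left out. It was 11 by the adjusted p without a fold minimum. The count past the adjusted p (11) was 38 with DESeq2 (5816 of all loci passed there, against 730), 21, 18 and 17 with limma at pseudocounts of 0.1, 1 and 0.01, 19 with a minimum of 1 FPKM, and 0 to 25 with a library left out. No member was upregulated under any of these settings. At the labor stage, the downregulated count (2) was 0 with a minimum of 1 FPKM, with a pseudocount of 1 and by the adjusted p, 1 with quantile normalization and loci naming 1 gene, and 0 to 3 with a library left out, where 0 to 1 were upregulated. Its median log2 fold change of -0.27 lay between -0.54 (without E15.5 replicate 3) and 0.032 (without E15.5 replicate 1). The higher count of the difference between stages (1) was 0 with a pseudocount of 1, and the 9 pairs past the adjusted p became 2 to 20 with a library left out. With loci naming 1 gene, the mean summed FPKM at E18.5 was 930.1 in place of 1052. The causes were not tested.

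With the replicate number as a block, 39 members were downregulated and 0 passed the adjusted p at the implantation stage, 1 was downregulated at the labor stage, and 1 pair passed the adjusted p of the difference. No source ties the numbers to a shared litter or day, and deviations of same-numbered libraries correlated at -0.06 to 0.02. A correlation over many loci cannot show a link that affects only some of them. Whether same-numbered libraries are paired is unknown.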

Other observations

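The labor table holds 3 more histone loci without an Ensembl transcript, all weakly expressed. Such a locus named Hist1h1c had 0.404, 0.0877 and 0.391 FPKM at E15.5 and 2.16, 2.53 and 0.853 FPKM at E18.5, with each E18.5 library above each E15.5 library (log2 fold change 2.31, unadjusted p = 0.0038, adjusted p = 0.183 in limma). The Hist1h1c locus with an Ensembl transcript had a log2 fold change of 0.24. A locus named Hist1h4i had 0, 0.0343 and 0.111 FPKM at E15.5 and 1.58, 0.202 and 0.616 FPKM at E18.5 (log2 fold change 2.33, adjusted p = 0.244), and one named Hist1h4k had 0.968 to 1.10 FPKM at E15.5 and 0.837 to 1.47 FPKM at E18.5.

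Within E4.5 the histone loci often shared their highest and their lowest library in FPKM. E4.5 replicate 1 was the highest E4.5 library for 41 of 62 loci and E4.5 replicate 2 the lowest for 44 of 62. The share over all loci was not computed. E4.5 replicate 1 was also the highest early library for 16 of 23 S phase and 8 of 10 mitosis genes. Of all FPKM, the histone loci took 0.446% in E4.5 replicate 1, 0.304% in replicate 2 and 0.535% in replicate 3. Within E0.5, replicate 3 was the highest for 36 of the 60 loci above 0 on that day.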
